A study of Mus musculus with 8 samples.

Results

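The acute phase reaction is a change in secreted proteins that follows infection or injury, and it is best known from the liver. Epithelia can make some of the same proteins, and several of them are known from the mammary gland during involution, the return of the gland to its resting state after weaning. Described here were 10 genes of this kind out of 27998 in the count matrices: Hp, Saa1, Saa2, Saa3, Lbp, Cp, Fgb, Fgg, Fga and Spp1. They were taken by gene symbol and had been chosen from earlier results of these same data, so their levels over cell clusters and stages are given as a description and were not tested.

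Single mammary epithelial cells of C57BL/6N mice were sequenced with the 10x Chromium 3' method. Each of the 8 libraries held cells of 1 mouse, and there were 2 mice at each of 4 stages. NP mice were nulliparous and 8 weeks old. G mice were at gestation day 14.5 and L mice at lactation day 6. PI mice were taken at day 11 once their pups had weaned by themselves, after involution. Vaginal smears taken by the authors placed the first PI mouse in diestrus, and the second PI mouse and both NP mice in estrus. Each stage thus rests on 2 individuals of a single strain, and no genotype or agent besides the stage is named for any group. Cells had been sorted for the surface marker EpCAM after exclusion of cells with CD31, CD45 or Ter119, which depletes blood, endothelial and stromal cells. Some were still sequenced, and the authors set aside clusters of immune cells (C16 and C17), fibroblasts (C18) and endothelial cells (C19). In the first L mouse, C17, C18 and C19 held 212, 284 and 191 cells.

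Haptoglobin (Hp) binds free haemoglobin, and ceruloplasmin (Cp) is a copper-carrying oxidase of iron. Serum amyloid A proteins (Saa1, Saa2 and Saa3) are carried by lipoproteins and rise steeply in inflammation, and Saa3 is the form made mainly outside the liver. Lipopolysaccharide-binding protein (Lbp) hands bacterial lipopolysaccharide to the receptor Cd14. Fibrinogen, the substrate of clotting, is assembled from the chains encoded by Fga, Fgb and Fgg. Osteopontin (Spp1) is a secreted phosphoprotein that binds integrins and Cd44 and is abundant in milk. In liver cells, interleukin 6 acting through STAT3, interleukin 1 acting through NF-kB, and C/EBP factors switch on most of these genes.

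On chromosome 7 the serum amyloid genes stand close together, with Saa3 at chr7:46711998-46715700 and Saa1 at chr7:46740497-46742980, both on the minus strand, and Saa2 at chr7:46751790-46754313 on the plus strand. Saa1 and Saa2 point away from each other across 8809 bases. The fibrinogen genes form a cluster on chromosome 3, in the order Fgg (chr3:83007724-83015049, plus strand), Fga (chr3:83026076-83033627, plus strand) and Fgb (chr3:83040141-83049863, minus strand). Fgg and Fga are 11026 bases apart, and Fga and Fgb are 6513 bases apart. Hp lies at chr8:109575128-109579172 (minus strand), Lbp at chr2:158306493-158332852 (plus strand), Cp at chr3:19957054-20009145 (plus strand) and Spp1 at chr5:104435118-104441050 (plus strand). The annotated genes overlap a neighbour in 3 cases, Cp with Hps3, Fgg with Gm30097 and Spp1 with Gm42793 (GRCm38 annotation).

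Promoters of the serum amyloid and fibrinogen genes are shown because members of both clusters were found together in some clusters and apart in others. Each line gives 200 bases, from 250 to 51 bases before the RefSeq start of the gene, 5' to 3' on the strand of the gene (RefSeq, build GRCm38.p6). Capitals mark a match to one of the motifs STAT (TTCNNNGAA), NF-kB (GGG, any 2 bases, TTTCC), C/EBP (TTGCNNAA) or HNF1 (GTTAAT, any base, ATTAAC), searched on both strands. Positions are negative and count back from the start. The windows are chr7:46743031-46743230 (minus) for Saa1, chr7:46751583-46751782 (plus) for Saa2, chr7:46715727-46715926 (minus) for Saa3, chr3:83049914-83050113 (minus) for Fgb, chr3:83007474-83007673 (plus) for Fgg and chr3:83025903-83026102 (plus) for Fga.
Saa1: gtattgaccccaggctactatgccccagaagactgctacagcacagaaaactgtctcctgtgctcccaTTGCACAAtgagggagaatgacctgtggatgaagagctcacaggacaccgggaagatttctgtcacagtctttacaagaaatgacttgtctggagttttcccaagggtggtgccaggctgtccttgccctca
Saa2: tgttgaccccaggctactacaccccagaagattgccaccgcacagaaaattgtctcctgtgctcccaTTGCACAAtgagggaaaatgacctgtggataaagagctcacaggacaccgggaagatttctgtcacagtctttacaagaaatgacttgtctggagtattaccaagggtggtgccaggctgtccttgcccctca
Saa3: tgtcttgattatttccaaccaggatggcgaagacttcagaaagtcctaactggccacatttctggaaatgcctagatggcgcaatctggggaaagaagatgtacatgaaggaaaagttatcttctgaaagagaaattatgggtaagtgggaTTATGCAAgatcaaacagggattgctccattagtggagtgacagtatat
Fgb: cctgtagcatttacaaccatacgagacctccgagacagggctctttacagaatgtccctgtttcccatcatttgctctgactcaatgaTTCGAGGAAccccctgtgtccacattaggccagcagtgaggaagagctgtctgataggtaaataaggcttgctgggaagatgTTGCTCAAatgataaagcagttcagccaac
Fgg: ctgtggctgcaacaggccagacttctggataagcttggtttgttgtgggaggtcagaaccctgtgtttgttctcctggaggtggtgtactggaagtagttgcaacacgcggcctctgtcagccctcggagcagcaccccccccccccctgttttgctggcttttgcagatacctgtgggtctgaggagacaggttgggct
Fga: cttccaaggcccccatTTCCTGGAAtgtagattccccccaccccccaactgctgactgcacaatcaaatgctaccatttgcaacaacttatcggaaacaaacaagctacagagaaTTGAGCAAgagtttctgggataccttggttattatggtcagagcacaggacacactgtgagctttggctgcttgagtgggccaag

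The windows of Saa1 and Saa2 were nearly the same, with 188 identical bases in 201 aligned columns (93.5%), and both held a C/EBP match at almost the same place, from -182 in Saa1 and from -183 in Saa2. The other pairs were less alike, with 107 identical bases in 210 columns for Saa1 and Saa3 and 106 in 216 for Fgb and Fgg. Saa3 had a C/EBP match from -99. The Fgb window held a STAT match (-162 to -154) and a C/EBP match (-80 to -73), the Fga window a STAT match (-234 to -226) and a C/EBP match (-135 to -128), and the Fgg window none of the 4 motifs. Among all 32851 promoters of the table, 5.76% held the STAT letters, 8.11% the C/EBP letters and 1.05% the NF-kB letters in a window of this length, and HNF1 matched 1. A match describes the letters and is not a site of binding. Of the 10 members, 8 had an entry in the promoter table, and Hp and Lbp had none.

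The 8 libraries held 25806 barcodes and between 13785920 and 35711533 UMIs, the molecule tags that mark single captured transcripts. The lowest total came from the first PI mouse. Median UMIs per cell were lowest in the L mice, at 3770 and 4258. There were 392 barcode sequences found in more than 1 library, and the 791 barcodes that carried them had been left out by the authors. UMIs were summed per mouse and per deposited cluster (C1 to C15), and 35 sums rested on at least 20 cells. Levels are CPM, the UMIs of a gene per 1000000 UMIs of all genes in the sum. Most clusters came from 1 stage, so that cluster and stage can rarely be told apart. The authors' division into luminal and basal classes went with markers in luminal progenitor and hormone-sensing classes of NP and PI mice and in basal cells. Krt8, Krt18 and Epcam together stood at 12717 to 21672 CPM in those luminal classes. Krt5, Krt14, Acta2 and Oxtr stood at 7613 to 33188 CPM in basal cells. The alveolar classes of L mice carried markers of more than 1 class. Their alveolar markers (Csn2, Wap, Lalba and Glycam1) were at 193712 to 213621 CPM in differentiated cells and 21225 to 25696 CPM in progenitors. Luminal markers of those differentiated cells stood at 1945 to 3160 CPM, against 3442 to 5191 CPM in basal cells of NP mice. Basal markers stood at 3402 to 4629 CPM in those progenitors. Progenitor classes of PI mice also carried alveolar markers, at 1425 to 1754 CPM in luminal progenitors and 683 to 798 CPM in hormone-sensing progenitors. Their luminal progenitor markers (Aldh1a3, Kit, Cd14 and Elf5) stood at 1066 to 1505 CPM and 508 to 819 CPM. Markers of several other cells were low in all 30 sums per mouse and class. Hepatocyte genes (Alb, Ttr, Apoa2 and Ahsg) reached at most 1.76 CPM, neutrophil genes 0.503 CPM, the leukocyte gene Ptprc 10.4 CPM, and T and B cell genes 1.53 CPM. Stromal and macrophage markers were not low throughout. The 6 fibroblast markers together stood at 672 to 901 CPM in basal cells of G mice, 510 to 649 CPM in those of L mice and 6.64 to 185 CPM in luminal progenitors of NP mice, the 4 pericyte markers at 53.4 to 109 CPM in basal cells of L mice, and the 6 macrophage markers at 77.4 to 122 CPM in hormone-sensing cells of G mice.

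Over C1 to C15 the members gave 90120 UMIs of Hp, 76075 of Spp1, 42685 of Fgb, 39019 of Fgg, 21298 of Cp, 4806 of Saa1, 4722 of Lbp, 2158 of Saa2, 307 of Saa3 and 1 of Fga. Each had its own pattern over the clusters, as the plot of levels by cluster and mouse shows.

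**Figure D1:**
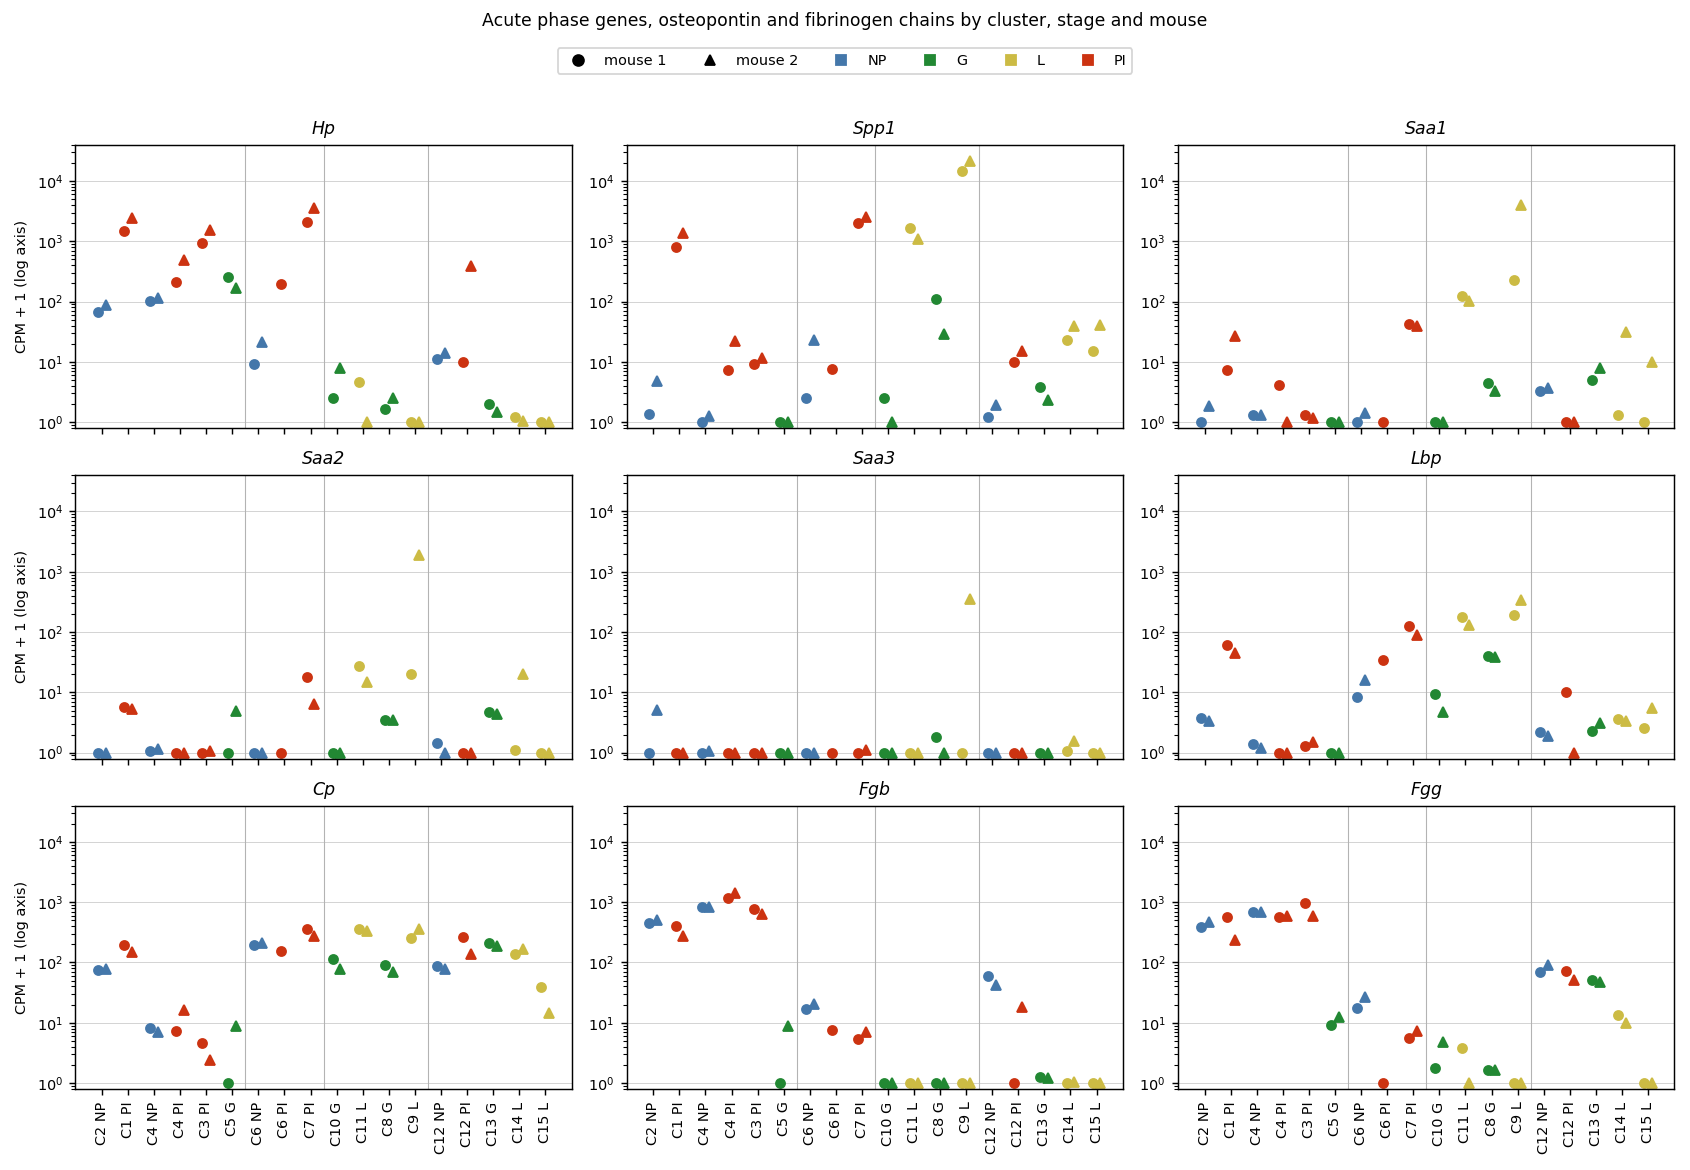
Level of each member (CPM + 1, log axis) in every sum of at least 20 cells, by cluster and stage on the x axis, with 1 point per mouse (circle, mouse 1; triangle, mouse 2) and colour for stage; grey lines part hormone-sensing, luminal progenitor, alveolar and basal clusters, and Fga (1 UMI in all) is not drawn. Hp was highest in clusters of PI mice, Spp1 and Saa1 in C9 of L mice, and Fgb and Fgg in the hormone-sensing clusters of NP and PI mice.

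Hp was highest in the 3 main luminal clusters of the post-involution gland. In the luminal progenitors of PI mice (C7) it stood at 2085 and 3571 CPM in the first and second mouse, in the hormone-sensing progenitors (C1) at 1485 and 2440.3 CPM, and in the differentiated hormone-sensing cells (C3) at 943 and 1518 CPM. C1 overlapped with C7 and with C3, but C7 and C3 did not overlap, and the second mouse was higher in each. The smaller luminal clusters of PI mice were lower, with 212 and 498 CPM in C4 and 198 CPM in C6 of the 1 mouse with enough cells. The same cell types of NP mice had 8.15 and 20.3 CPM (C6), 65.5 and 86.1 CPM (C2) and 101 and 114 CPM (C4). In NP mice the order was the other way, with differentiated hormone-sensing cells highest and luminal progenitors lowest, and none of these 3 overlapped. The hormone-sensing cells of G mice (C5, 20 and 41 cells) had 259.7 and 170.3 CPM. In secretory alveolar cells Hp was low, with 0.68 and 1.55 CPM in C8 of G mice and 0 in C9 of both L mice. Basal cells of PI mice (C12) had 8.96 and 391 CPM.

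The share of cells with Hp followed the levels. After each cell was thinned to 1000 UMIs, Hp was found in 55.3% and 72.5% of C7 cells, in 42.7% and 60.0% of C3 cells, and in 7.93% and 8.99% of C4 cells of NP mice. Without thinning these were 81.6% and 87.7%, 75.5% and 89.7%, and 42.0% and 41.3%, at median depths of 5579 to 10309 UMIs per cell. Basal cells of G mice (C13) had none among 525 and 594 thinned cells, which allows at most 0.571% and 0.505%. The G libraries held little Hp in all, 1.76 and 3.22 CPM over C1 to C15 against 1618 and 2197 CPM in PI mice. They thus give no background of free RNA for PI or NP mice. Basal cells of the same PI mice (C12) had 8.96 and 391 CPM, and those of NP mice 10.3 and 13.3 CPM.

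By cluster, Spp1 was highest in C9 of lactation and was high again in the post-involution gland. Over C1 to C15 together it was at 456 and 957 CPM in L mice and at 1250 and 932 CPM in PI mice. In the differentiated alveolar cells of L mice (C9) it reached 14742 and 21697 CPM, against 111 and 27.9 CPM in the corresponding cells of G mice (C8). The luminal progenitors of PI mice (C7) followed with 2036 and 2563 CPM, and the hormone-sensing progenitors of PI mice (C1) with 796 and 1359 CPM. Differentiated hormone-sensing cells of the same PI mice (C3) had 8.10 and 10.7 CPM, so that progenitors and differentiated cells of the hormone-sensing lineage did not overlap. Alveolar progenitors of L mice (C11) had 1672 and 1104 CPM, but a single cell gave 63.6% and 74.9% of these UMIs, and without it the levels were 616 and 284 CPM. In C9 a UMI of Spp1 was found in 90.5% and 89.4% of thinned cells, and in myoepithelial cells of the same mice (C14) in 2.26% and 4.06% (unthinned, 95.2% and 97.9% against 8.54% and 17.6%, at median depths of 11602 and 16271 against 3701 and 4148 UMIs).

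Serum amyloid A was concentrated in C9 of 1 lactating mouse. Saa1 had 225 and 3988 CPM there, Saa2 had 19.2 and 1927 CPM, and Saa3 had 0 and 350.4 CPM. The second L mouse was the higher for all 3 genes. In the first mouse 6 of 42 cells held Saa1 and 1 of them 56.6% of its UMIs (99.1 CPM without that cell), in the second 34 of 47, of which 28 had at least 10 UMIs. All 28 cells with Saa2 and all 13 with Saa3 in the second mouse also held Saa1. For Saa3 a single cell carried 42.7% of the UMIs of C9, and without it the level was 209 CPM. Outside C9, Saa3 stayed at or below 4.05 CPM in every epithelial sum.

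Alveolar progenitors of L mice (C11) had 121 and 102 CPM of Saa1, of which 87.0% and 80.5% came from 1 cell of each mouse, and 15.9 and 20.5 CPM without it. Luminal progenitors of PI mice (C7) had 42.2 and 38.0 CPM, found in 36 of 824 and 82 of 1101 cells. A single cell of each mouse gave 19.9% and 14.9% of these UMIs. With every cell given equal weight the levels were 25.9 and 53.2 CPM. Hormone-sensing progenitors of PI mice (C1) had 6.35 and 25.5 CPM, with 66.7% from 1 cell in the first mouse (2.15 CPM without it). C9, C11, C7 and C1 did not overlap in this order, and below C1 each neighbour overlapped with the next except C4 of NP mice over C3, both under 1 CPM. The linked gene Saa4 had no UMI in any of the 35 sums.

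**Figure D2:**
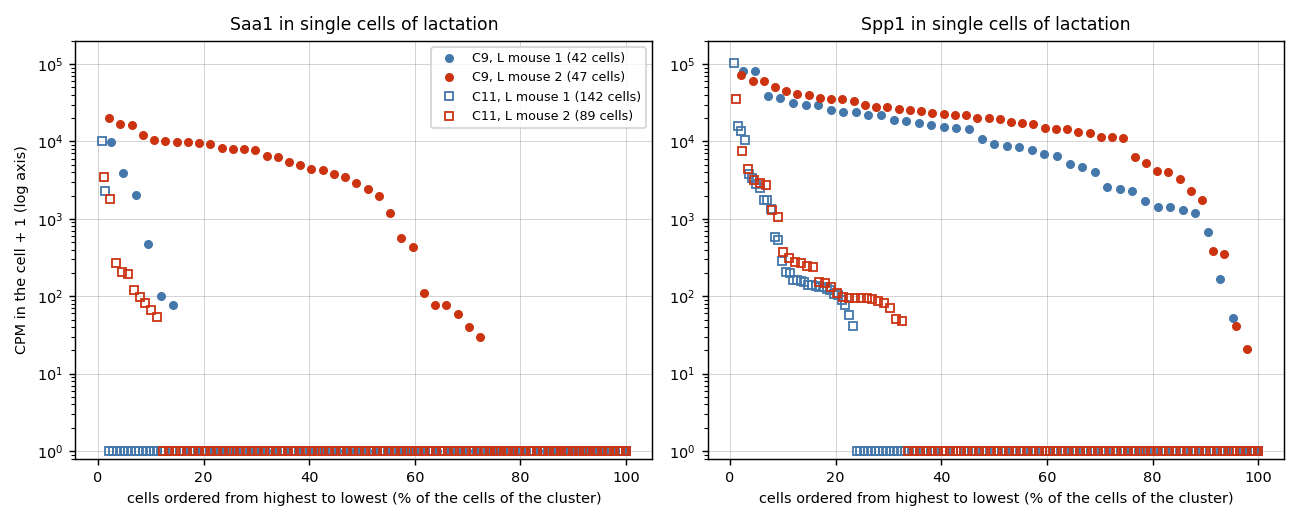
Saa1 (left) and Spp1 (right) in single cells of C9 and C11 of the 2 L mice, each cell as CPM + 1 (log axis) and ordered from highest to lowest along the x axis in percent of the cells of its cluster and mouse. Spp1 was high in most C9 cells of both mice (medians 8933 and 19346 CPM per cell), whereas Saa1 was high in C9 of the second mouse (median 2397 CPM) and at 0 in most cells of the first; in C11 single cells stand far above the rest.

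The myoepithelial cells (C14) showed the same contrast at a lower level, with Saa1 in 7 of 4637 cells of the first L mouse and in 181 of 3104 cells of the second (0.331 and 30.7 CPM in the basal class). In the second mouse C9 had 16099 UMIs of Spp1 and 2959 of Saa1, and C14 had 642 of Spp1 and 511 of Saa1. Saa1 and Saa2 were found together in 34 C14 cells where 6.01 would be found if they were independent. Free RNA from C9 cells moves with the same contrast between mice, and its part in the C14 values was not tested.

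Lbp was highest in the alveolar clusters of L mice and the luminal progenitors of PI mice. It stood at 190.4 and 344 CPM in C9, 174 and 132 CPM in C11, 123 and 87.4 CPM in C7, 59.8 and 44.6 CPM in C1, and 38.8 and 38.0 CPM in C8. None of these 5 neighbours in the order overlapped between mice. Luminal progenitors of NP mice (C6) had 7.24 and 14.9 CPM, alveolar progenitors of G mice (C10) 8.42 and 3.74 CPM, and hormone-sensing progenitors of NP mice (C2) 2.71 and 2.31 CPM, so that progenitor clusters differed widely. Differentiated hormone-sensing cells hardly used the gene, with 0.274 and 0.498 CPM in the class in PI mice. Thinned to 1000 UMIs, 21.4% and 34.0% of C9 cells held Lbp (71.4% and 85.1% unthinned).

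Cp was the most evenly spread member and was present in luminal progenitor, alveolar and basal clusters alike. C7 had 363 and 276 CPM, C11 had 352 and 332 CPM, C9 had 259 and 361 CPM, C13 had 210.04 and 189 CPM, C6 had 196 and 207 CPM, and C14 had 139.9 and 167 CPM. Most of these ranges overlapped. Cp was lowest in the differentiated hormone-sensing lineage, with 7.10 and 5.93 CPM in C4 of NP mice and 3.60 and 1.42 CPM in C3 of PI mice. It was also low in the Procr-positive cluster C15 of L mice, with 38.8 and 13.3 CPM from 25 and 3 UMIs. Cp and Hp thus parted in C3, where Hp was high.

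In NP and PI mice fibrinogen transcripts came mainly from hormone-sensing cells. Fgb stood at 1180 and 1429 CPM in C4 of PI mice (40 and 88 cells), 824 and 823 CPM in C4 of NP mice, 784 and 625 CPM in C3, 457 and 498 CPM in C2 and 401 and 271 CPM in C1. Fgg stood at 969 and 580 CPM in C3, 683 and 691 CPM in C4 of NP mice, 563 and 586 CPM in C4 of PI mice, 569 and 238 CPM in C1 and 382 and 467 CPM in C2. Both genes were far lower in luminal progenitors, with 15.99 and 19.5 CPM of Fgb and 16.9 and 25.3 CPM of Fgg in C6. Fga gave 1 UMI in all, in C2 of the first NP mouse, so that transcripts for Fgb and Fgg were found and those for Fga were at the limit of detection. The genes beside the cluster, Plrg1 and Lrat, had at most 54.3 and 3.49 CPM.

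Hormone-sensing cells of gestation were the exception in their lineage. C5 had 2 UMIs of Fgb (0 and 7.74 CPM), both in 1 cell, and 4 of Fgg (8.11 and 11.6 CPM). Against C4 of NP mice, Fgb was 157-fold lower in the pooled UMIs (95% counting interval 43.5 to 1298) and Fgg 65.6-fold lower (25.6 to 241), while Hp was at 259.7 and 170.3 CPM against 101 and 114 CPM. C5 rested on 20 and 41 cells, and the intervals cover counting error only, without the spread between mice. Markers of other cells moved with this contrast, with alveolar markers at 387 to 722 CPM in C5 against 0.626 to 0.687 CPM in differentiated hormone-sensing cells of NP mice and macrophage markers at 77.4 to 122 CPM against 4.81 to 7.91 CPM, and their part was not tested.

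In basal cells the chains parted. C12 of NP mice had 57.8 and 42.1 CPM of Fgb and 69.6 and 89.2 CPM of Fgg. In basal cells of G mice (C13) Fgg remained at 49.8 and 46.9 CPM while Fgb had 1 UMI in each mouse (0.25 and 0.23 CPM), and in L mice (C14) Fgg was at 12.4 and 8.85 CPM. Of the UMIs of Fgb and Fgg together, Fgb made up 54.7% and 54.4% in C4 of NP mice, 45.4% (exact binomial interval 41.1 to 49.7) and 32.1% (26.7 to 37.8) in C12 of NP mice, and 0.505% (0.0128 to 2.78) and 0.485% (0.0123 to 2.67) in C13. In C3 and C1 the first PI mouse had less Fgb (44.7% and 41.4%) than the second (51.9% and 53.3%), and C4 of PI mice had the highest shares, 67.7% and 70.9%. The first PI mouse was in diestrus and the second in estrus, and the part of the cycle in these shares was not tested. Fgg has the overlapping annotated gene Gm30097, and no 50-base window of the last 500 bases was shared between fibrinogen transcripts.

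**Figure D3:**
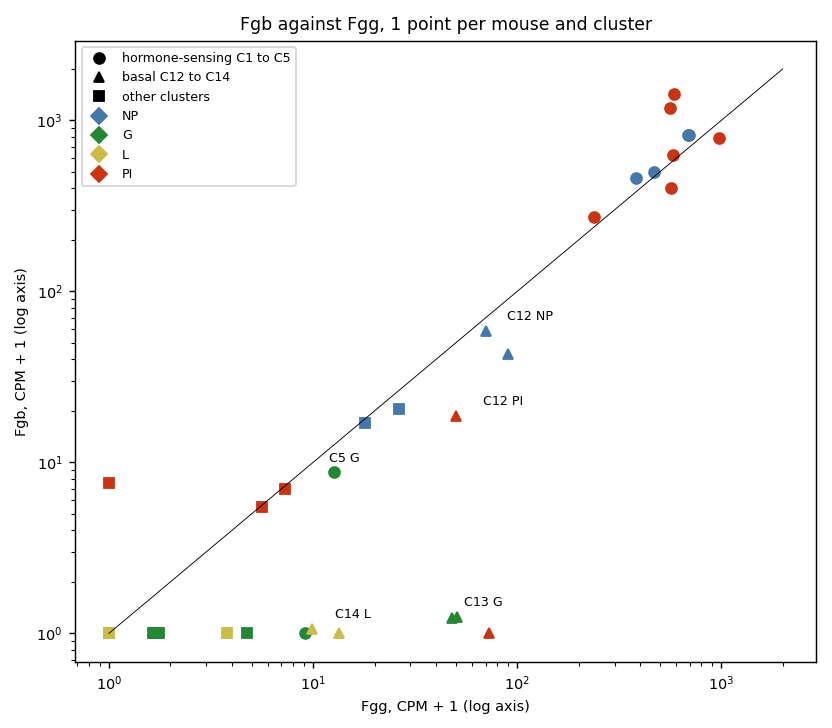
Fgb against Fgg (CPM + 1, both log axes), 1 point for each mouse and cluster of at least 20 cells, with colour for stage, shape for the kind of cluster and a line of equal level. Hormone-sensing clusters of NP and PI mice lie together at 238 to 1429 CPM, and the basal cells of G mice (C13) lie at 46.9 and 49.8 CPM of Fgg with Fgb near 0.

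Within clusters, members were found in the same cells somewhat more often than independence would give. In C4 of NP mice Fgb and Fgg were together in 587 and 765 cells where 532 and 678 would be found, and in C7 Hp and Spp1 in 346 and 644 cells where 316 and 605 would be. In C7, 30 of 36 and 78 of 82 Saa1 cells also held Spp1, against 16.9 and 51.4 for independence, and 8 and 11 cells held both Saa1 and Saa2 against 0.437 and 0.968. Deeper cells show more of every gene, so ratios above 1 are a description. Saa1 and Saa2 transcripts share 24 of 451 windows of 50 bases (5.32%) in their last 500 bases, and reads in these could be assigned to either gene or to none.

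For each comparison between stages, UMIs were summed per mouse over the clusters of a cell class and fitted with edgeR. A log2 difference is given ± its standard error from that fit, with 2 mice against 2. With 2 mice a group, an exact two-sided permutation test of 1 gene cannot go below p = 0.333, so calls draw on a spread that the fit pools over many genes. Genes were called at an adjusted p under 0.05 over all genes tested. For the members the calls are set beside the share of all genes called, and nothing is read from them, since the members had been chosen on these differences.

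Luminal progenitors of PI mice differed from those of NP mice in 8 members that passed the filter on low counts, 6 called higher and 2 lower, where 13.9% of 10766 genes were called higher and 13% lower. Hp was at 2047 and 3548 CPM in PI against 8.15 and 20.3 CPM in NP, a log2 difference of 7.77 ± 0.40. Spp1 was at 1995 and 2546 CPM against 1.51 and 22.4 CPM (7.80 ± 0.55), Lbp at 122 and 87.0 CPM against 7.24 and 14.9 CPM (3.37 ± 0.27), and Cp at 359 and 275 CPM against 196 and 207 CPM (0.73 ± 0.15). No mice of the 2 stages overlapped in these genes. Saa1 had 615 UMIs in PI and 1 in NP, 226-fold higher with a counting interval of 40.5 to 8954, and Saa2 had 168 and 0, at least 20.6-fold higher against a floor of 3 counts over the group. A single cell of C7 gave 62 of 124 Saa2 UMIs in the first PI mouse and 19 of 44 in the second. The fibrinogen chains went the other way, Fgb at 4.51 and 6.11 CPM against 15.99 and 19.5 CPM (-1.64 ± 0.26) and Fgg at 4.51 and 6.48 CPM against 16.9 and 25.7 CPM (-1.84 ± 0.29). The 2 NP mice differed, and without the second or the first of them the value for Hp was 8.53 or 7.16 and for Spp1 10.64 or 6.72. Alveolar markers (Csn2, Wap, Lalba and Glycam1) moved with this difference, at 1425 to 1754 CPM in PI against 8.75 to 20.3 CPM in NP, and their part was not tested.

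Hormone-sensing progenitors showed the same direction in the acute phase genes and smaller differences in fibrinogen. Of the 10 members 8 were tested, 6 called higher and 0 lower in PI, where 9.58% of 10692 genes were called higher and 7.05% lower. Hp was at 1439.9 and 2431 CPM against 65.5 and 86.1 CPM (4.67 ± 0.28), Spp1 at 771 and 1354 CPM against 0.386 and 3.76 CPM (9.21 ± 0.49), and Lbp at 58.4 and 44.4 CPM against 2.70 and 2.31 CPM (4.28 ± 0.25). Cp was at 188 and 145 CPM against 74.9 and 78.3 CPM (1.10 ± 0.15). Saa1 was 57.6-fold higher (counting interval 19.3 to 283, 140 UMIs against 3) and Saa2 at least 12.8-fold higher (31 against 0). Fgb was lower in PI without overlap between the mice, at 410.1 and 270.1 CPM against 457 and 498 CPM (-0.52 ± 0.18). For Fgg the mice overlapped, at 571 and 237 CPM against 382 and 467 CPM (-0.11 ± 0.29), and without the first PI mouse the value was -0.82. Without the first or the second NP mouse the value for Spp1 was 8.09 or 11.35. Alveolar markers were at 683 to 798 CPM in PI against 1.73 to 5.6 CPM in NP, which was not tested for its part either.

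Differentiated hormone-sensing cells differed in Hp and Spp1, and at low levels in Cp. Of 5 members tested, 2 were called higher and 1 lower, where 7.64% of 11994 genes were called higher and 6.65% lower. Hp was at 879 and 1485 CPM against 101 and 117 CPM (3.39 ± 0.28), without overlap. Spp1 was higher in PI at low levels, at 7.94 and 11.0 CPM against 0 and 0.275 CPM (5.94 ± 0.55 with 206 UMIs against 4). Cp was lower, at 3.84 and 1.87 CPM against 7.05 and 5.91 CPM (-1.47 ± 0.33, or -0.86 without the second PI mouse). Fgb was at 818 and 652 CPM against 822 and 821 CPM (-0.23 ± 0.18), and Fgg at 934 and 581 CPM against 686 and 690.0 CPM (0.06 ± 0.21), with overlapping mice. The value for Spp1 was 5.03 without the first NP mouse and 9.72 without the second. Saa1, Saa2 and Lbp were at or below 0.548 CPM in each mouse of both stages.

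The interaction fit set luminal progenitors beside differentiated hormone-sensing cells of the same mice. The PI minus NP difference was larger in luminal progenitors for Hp by 4.39 ± 0.19, for Lbp by 2.61 ± 0.80, for Cp by 2.14 ± 0.23 and for Spp1 by 1.81 ± 0.93 on the log2 scale. The same value was -1.42 ± 0.26 for Fgb and -1.89 ± 0.35 for Fgg. In differentiated hormone-sensing cells Lbp had 9 UMIs in PI and 8 in NP, and Spp1 had 4 in NP, so their values rest on levels near the floor. Saa1 (8.12 ± 1.75) and Saa2 (9.71 ± 2.71) were near the floor there in both stages. Over all 11743 genes of this fit, 10.4% differed with a higher and 9.84% with a lower value in luminal progenitors.

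**Figure D4:**
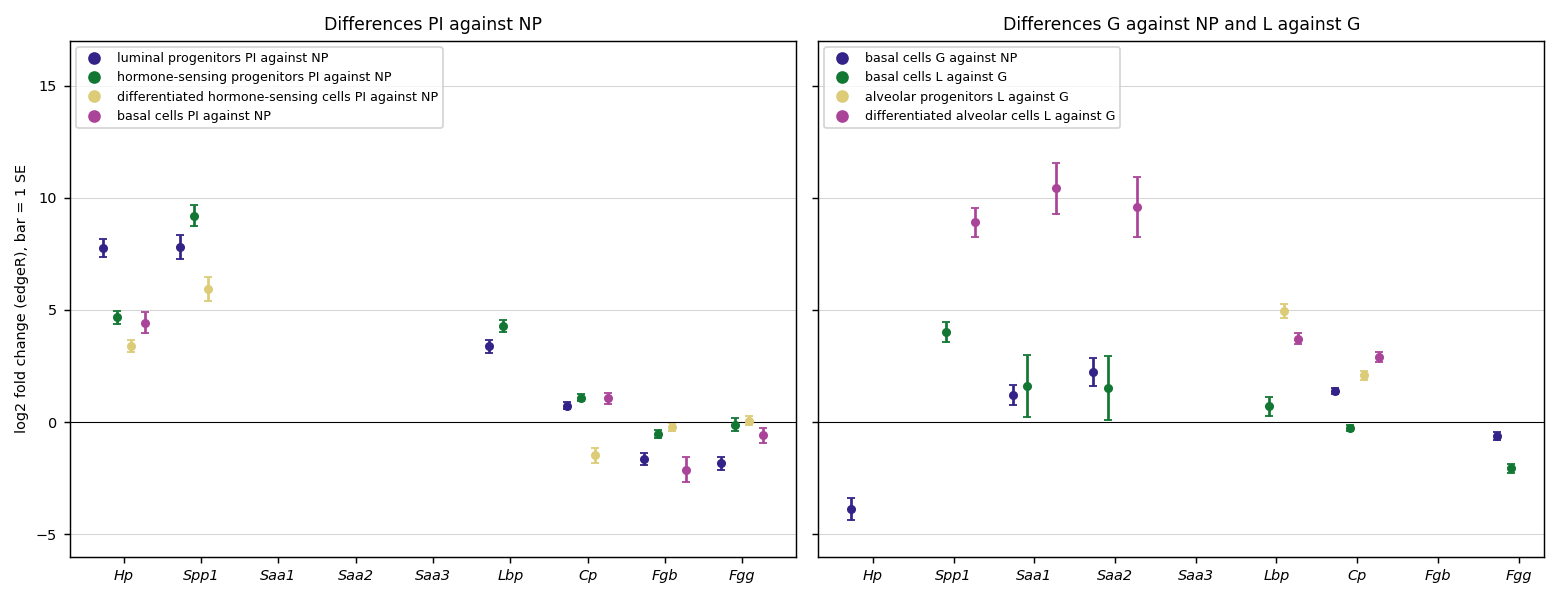
Log2 difference between stages (edgeR fit, bars of 1 standard error, 2 mice against 2) for each member tested and 4 comparisons per panel, PI against NP on the left and G against NP or L against G on the right. Genes with 3 or fewer UMIs in a group are left out; of those drawn, Hp was higher in PI in the luminal classes (3.39 to 7.77), and Fgb and Fgg were at or below 0.06 in every comparison drawn.

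Basal cells of the post-involution gland were few, with 27 and 53 cells in C12, and the first PI mouse gave 114382 UMIs. Of 4 members tested 2 were called higher and 1 lower, where 4.74% of 8511 genes were called higher and 2.69% lower. Hp was at 8.74 and 358 CPM in PI against 10.3 and 13.2 CPM in NP (4.43 ± 0.46). The mice overlapped, a single cell gave 36.0% of the UMIs in C12 of the second PI mouse, and without that mouse the value was -0.49. That mouse also had more luminal markers in its basal sum, 6074 against 2999 CPM in the first, and more hormone-sensing markers, 768 against 8.74 CPM, and the part of luminal RNA in the Hp value was not tested. Cp was at 254 and 134 CPM against 86.5 and 76.0 CPM (1.06 ± 0.24). Fgb was at 0 and 15.99 CPM against 57.8 and 41.9 CPM (-2.12 ± 0.56), or -9.81 without the second PI mouse, where the remaining mouse was at 0. Fgg was at 69.9 and 44.8 CPM against 69.6 and 88.8 CPM (-0.59 ± 0.33), with overlap.

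Between NP and G, basal cells exchanged members. Of 6 tested, 3 were called higher and 3 lower in G, where 24.3% of 11086 genes were called higher and 21.9% lower. Cp was at 210.3 and 187 CPM in G against 86.5 and 76.0 CPM in NP (1.37 ± 0.13). Saa1 was at 4.02 and 6.73 CPM against 2.35 and 2.73 CPM (1.20 ± 0.45). In C12 of NP mice a single cell held 8 of 10 Saa1 UMIs in the first mouse and all 6 in the second, and without it the levels were 0.471 and 0 CPM. Saa2 was at 3.77 and 3.37 CPM against 0.470 and 1.37 CPM (2.23 ± 0.61, and 1.41 or 2.95 without the first or the second NP mouse). Fgb was 221-fold lower in G (counting interval 60.7 to 1831, 2 UMIs against 338), and Fgg less so, at 49.5 and 46.7 CPM against 69.6 and 88.8 CPM (-0.61 ± 0.16). Hp was at 1.01 and 0.449 CPM against 10.3 and 13.2 CPM (-3.87 ± 0.49, or -4.49 without the first G mouse). Markers of luminal cells were also lower, with 3442 to 5191 CPM in NP and 1212 to 1352 CPM in G, and so were hormone-sensing markers, with 278 to 304 CPM in NP and 15.3 to 17.9 CPM in G. Fibroblast markers were higher, with 177 to 264 CPM in NP and 672 to 901 CPM in G. Their part in the Fgb and Hp values was not tested.

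Between G and L, Fgg of basal cells was lower again, at 12.3 and 8.84 CPM in L against 49.5 and 46.7 CPM in G (-2.06 ± 0.18). Spp1 was at 21.7 and 38.6 CPM against 2.77 and 1.35 CPM (4.0 ± 0.44). Of 6 members tested 1 was called higher and 1 lower, where 24.2% of 12720 genes were called higher and 24% lower. Saa1 was at 0.331 and 30.7 CPM against 4.02 and 6.73 CPM (1.62 ± 1.37) and Saa2 at 0.0946 and 19.1 CPM against 3.77 and 3.37 CPM (1.52 ± 1.44), with the L mice on either side of the G mice. Without the second L mouse these values were -3.86 and -4.94, and without the first 2.64 and 2.56. Cp was at 140.0 and 167 CPM against 210.3 and 187 CPM (-0.26 ± 0.14), and Lbp at 2.60 and 2.41 CPM against 1.26 and 2.02 CPM (0.71 ± 0.41).

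Differentiated alveolar cells of lactation had higher levels of the 5 members tested, all 5 called higher and 0 lower, where 9.54% of 11860 genes were called higher and 9.17% lower. Spp1 was at 14613 and 21613 CPM in L against 111 and 27.9 CPM in G (8.92 ± 0.65, or 10.46 without the first G mouse). Saa1 was at 223 and 3972 CPM against 3.55 and 2.28 CPM (10.42 ± 1.14) and Saa2 at 19.05 and 1919.6 CPM against 2.42 and 2.46 CPM (9.58 ± 1.35). Without the second L mouse these were 7.05 and 3.78, without the first 11.32 and 10.55, and with the replicate number as a block 9.28 and 7.95. Lbp was at 189 and 345 CPM against 38.8 and 38.0 CPM (3.72 ± 0.25, or 3.12 without the second L mouse), and Cp at 258 and 364 CPM against 88.9 and 67.6 CPM (2.90 ± 0.23). Saa3 was not tested. It was at 0 and 349 CPM against 0.794 and 0 CPM, so that the mice overlapped. Hp was at 0 in both L mice, and 0.680 and 1.55 CPM in G. Basal markers moved with this comparison, at 902 to 2061 CPM in L against 123 to 131 CPM in G, as did alveolar markers, at 193712 to 213621 CPM against 22816 to 37248 CPM, while luminal keratins and Epcam were lower, at 1945 to 3160 CPM against 5793 to 7050 CPM, and their part was not tested. The scaling mattered here. TMM shifted the median of all genes by 0.90 on the log2 scale, and without it Lbp was 2.81, Cp 2.0, Spp1 8.03, Saa1 9.48 and Saa2 8.64, each still above 0. Of all called genes 50.97% were higher with TMM and 9.06% without it.

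Alveolar progenitors gave a similar account with smaller numbers. All 5 members tested were called higher in L and 0 lower, where 15.7% of 8446 genes were called higher and 12.3% lower. Saa1 was at 116 and 101 CPM against 0 in both G mice, at least 106-fold higher, and Saa2 at 24.8 and 13.8 CPM against 0, at least 19.4-fold higher. Spp1 was 2003-fold higher (counting interval 554 to 16546, 2750 UMIs against 2). As given above, single cells carried most of the Saa1 and Spp1 UMIs of C11, and likewise 100% and 58.3% of those of Saa2. Basal markers moved with this comparison, at 3402 to 4629 CPM in L against 162 to 221 CPM in G, as did alveolar markers, at 21225 to 25696 CPM against 631 to 1265 CPM, and their part was not tested. Lbp was at 172 and 129 CPM against 8.42 and 3.74 CPM (4.95 ± 0.32, or 5.56 without the first G mouse) and Cp at 342 and 328 CPM against 115 and 77.4 CPM (2.09 ± 0.20). TMM shifted the median of all genes by 0.28, with 56.0% of called genes higher with it and 31.6% without it.

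Other genes of the same pathways were taken from 6 lists with 134 symbols, of which 132 were in the matrices (as 133 gene IDs). The lists, like the members, were chosen with earlier results of these data known. Their counts, medians and p-values below are therefore a description and no independent support. In luminal progenitors 84 of these genes were tested, 26 called higher and 15 lower in PI (edgeR quasi-likelihood test with Benjamini-Hochberg adjustment). Among all genes 2892 of 10766 were called. Among other acute phase proteins 8 of 11 were called higher and 2 lower, with a median log2 difference of 1.46 against -0.017 for all genes tested. Lactoferrin (Ltf), an iron-binding milk protein, was counted with iron, copper and haem handling, where 5 of 14 were higher and 0 lower (median 0.50). Interleukin 6 family and STAT3 signalling had 4 higher and 1 lower of 18 (median 0.11), lipopolysaccharide receptor, interleukin 1 and NF-kB signalling 6 and 5 of 21 (-0.07), coagulation and fibrinolysis 1 and 5 of 11 (-0.58), and receptors of osteopontin and fibrinogen 2 and 2 of 9 (0.21). Ltf rose by 3.16 ± 0.26 (adjusted p = 1.46e-05), Hmox1, which breaks down haem, by 2.26 ± 0.26 (adjusted p = 0.00012), and the iron-siderophore binder Lcn2 by 1.66 ± 0.18 (adjusted p = 7.18e-05). The complement component C3 fell (-2.10 ± 0.18, adjusted p = 1.81e-05), as did Tnf (-1.25 ± 0.13, adjusted p = 6.66e-05). Over all genes 51.7% of calls were higher, and 40.9% without TMM, where the list genes were called in the same number (41).

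**Figure D5:**
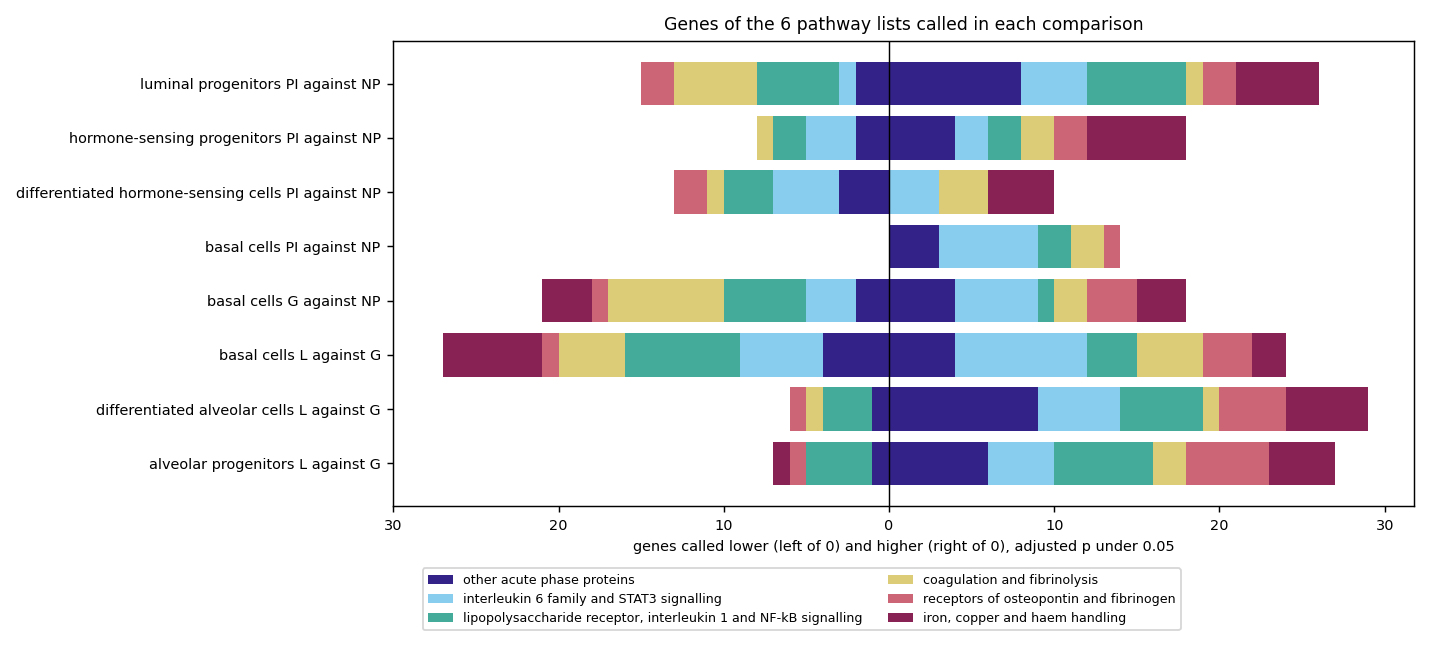
Number of genes of the 6 pathway lists called lower (left of 0) or higher (right of 0) in each comparison, at an adjusted p under 0.05 over all genes tested, with colour for the list. In luminal progenitors 26 were higher and 15 lower in PI; in the alveolar classes 29 and 27 were higher in L and 6 and 7 lower.

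Hormone-sensing progenitors had 26 of 85 list genes called, 18 higher and 8 lower, beside 1778 of 10692 among all genes. Ltf (3.49 ± 0.27), Lcn2 (2.38 ± 0.19), Hmox1 (2.02 ± 0.21) and the lipopolysaccharide receptor Cd14 (1.83 ± 0.19) rose, and the STAT3 target and inhibitor Socs3 (-0.75 ± 0.15) and the receptor chain Il6st (-0.58 ± 0.14) fell. Without the first or the second NP mouse the number called was 12 each. In differentiated hormone-sensing cells 23 of 83 were called, 10 higher and 13 lower, beside 1714 of 11994 among all genes, and none of the 10 tested acute phase proteins rose while 3 fell (median -0.60 against -0.021 for all genes). The metallothioneins Mt1 (-1.27 ± 0.28) and Mt2 (-1.36 ± 0.29) and the interleukin 6 receptor Il6ra (-1.66 ± 0.20) fell there, whereas tissue factor (F3, 0.90 ± 0.19) and Serpine2 (1.54 ± 0.16), an inhibitor of thrombin and plasminogen activators, rose. Without the second NP mouse 15 were called. The difference between luminal progenitors and differentiated hormone-sensing cells was tested itself, and 2375 of 11743 genes differed. Among list genes 36 differed, 26 with a higher and 10 with a lower value in luminal progenitors. This number was 18 without the first NP mouse and 22 without the second.

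In basal cells of PI mice 14 of 69 list genes were called, all higher, beside 632 of 8511 among all genes, among them Il6 (4.24 ± 0.40) and Il11 (2.38 ± 0.36), both ligands of the interleukin 6 family, and Socs3 (0.82 ± 0.18). Interleukin 6 family and STAT3 signalling had 6 higher and 0 lower of 17 (median 0.71 against -0.045 for all genes). The count of 14 over the 6 lists moved with single mice, to 4 and 5 without the first or the second NP mouse and to 7 without the second PI mouse, and 9 of 15 dissociation stress genes (such as Fos, Jun and Atf3) were also called higher. In G against NP 39 of 86 were called in basal cells, 18 higher and 21 lower, a share near that of all genes (5114 of 11086). Integrin beta 3 (Itgb3, 2.95 ± 0.27), a receptor chain for osteopontin, and Il6 (2.12 ± 0.32) rose, and the plasminogen activator Plat (-2.54 ± 0.22) and the urokinase receptor Plaur (-1.91 ± 0.15) fell, 2 of 7 genes of coagulation and fibrinolysis that fell of 13 (median -0.36 against 0.009). Here 12 of 15 dissociation stress genes were called higher. In L against G 51 of 95 were called, 24 higher and 27 lower, beside 6138 of 12720 among all genes, with Ltf (5.49 ± 0.25) and Socs3 (4.15 ± 0.36) higher and C3 (-3.78 ± 0.26) lower, and 15 of 15 stress genes were called higher. The part of dissociation in these values was not tested. TMM shifted the median in this comparison by 0.11, and 50.2% of all calls were higher with it and 41.8% without it.

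Alveolar cells of lactation had higher levels of other acute phase genes as well. In differentiated alveolar cells 35 of 91 list genes were called, 29 higher and 6 lower in L, beside 2219 of 11860 among all genes, and other acute phase proteins had 9 higher and 1 lower of 14 (median 2.91 against -0.143 for all genes, the same with genes at 0 set to their bound). Orm1, an acute phase glycoprotein, was at 319 and 528 CPM in L against 0.151 and 0 CPM in G (4 UMIs). Ltf (7.84 ± 0.37), Lrg1 (5.93 ± 0.26), Lcn2 (4.20 ± 0.27) and Socs3 (3.65 ± 0.21) rose and C3 (-2.95 ± 0.27) fell. In alveolar progenitors 34 of 61 were called (2368 of 8446 among all genes), 27 higher and 7 lower, with Ltf (7.39 ± 0.30), Lrg1 (6.22 ± 0.28) and Socs3 (3.93 ± 0.18) higher and C3 (-3.40 ± 0.24) lower, and other acute phase proteins had 6 higher and 1 lower of 7 (median 2.79 against -0.029). Without TMM the split of list genes turned to 16 higher and 25 lower in differentiated cells, and to 20 and 11 in progenitors, while acute phase proteins stayed at 8 higher and 2 lower and at 6 and 1. Without the first or the second G mouse 22 or 17 were called in differentiated cells. Dissociation stress genes were called higher in 12 and 14 of 15 (5 and 12 without TMM), and their part was not tested.

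The genes whose levels were most like those of the members over the 35 sums were found by the correlation of log2(CPM + 1), among 9761 genes that reached 20 CPM in a sum. Mice, clusters and stages are shared between these points, so the values are a description. Hp was most like Bsg (r = 0.91), Scnn1a (0.87) and Prom1 (0.86). Spp1 was most like the milk gene Lalba (0.90), Cel (0.85) and Cidea (0.83), and Saa1 most like Lalba (0.88), C530043A13Rik (0.86) and Orm1 (0.85). Saa2 followed Lalba (0.81), E030013I19Rik (0.80) and Orm1 (0.79), and Saa3 followed Orm2 (0.82), Orm1 (0.62) and Pip (0.61). Lbp was most like Csn3 (0.95), Btn1a1 (0.93) and Pigr (0.93). Cp was most like Lcn2 (0.92), Ptger4 (0.91) and Sox10 (0.89).

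Fgb was most like Fam25c (0.97), Acsbg1 (0.96) and Dnaic1 (0.96), and Fgg most like Ptn (0.93), Tapt1 (0.93) and 5930412G12Rik (0.93). Between members, the highest values were those of Saa1 and Saa2 (0.92), Fgb and Fgg (0.88), Lbp and Spp1 (0.85) and Saa1 and Spp1 (0.85). Hp went with Fgb (0.70) and Fgg (0.60) and was near 0 against Spp1 (-0.02) or negative against Saa1 (-0.25), Lbp (-0.17) and Cp (-0.35). Over the clusters the members thus fell into those that followed milk genes (Spp1, Saa1, Saa2 and Lbp), those of hormone-sensing cells (Fgb and Fgg) and Hp and Cp with patterns of their own.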

How the data were processed

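The authors deposited UMI counts per gene and cell of 8 single-cell libraries, made with Cell Ranger, together with their own cluster and quality flag for each cell. The submitters' processing notes name STAR and the mm10 build, and versions are not given in the sources used here. Doublets were gated out in the sort by the authors, who also set aside a cluster of likely doublets (C20), and no doublet caller was run here. Cells that passed the authors' flag were used, with clusters C16 to C19, which the authors took for non-epithelial cells, kept apart.

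UMIs were summed per mouse and cluster (at least 20 cells) or per mouse and cell class, and expressed as CPM. Cell classes joined the authors' clusters: C1 and C2 form the hormone-sensing progenitors, C3 to C5 the differentiated hormone-sensing cells, C6 and C7 the luminal progenitors, C8 and C9 the differentiated alveolar cells, C10 and C11 the alveolar progenitors, and C12 to C14 the basal cells. Stages were compared with the quasi-likelihood test of edgeR 4.0.16 in R 4.3.3 (TMM scaling, filterByExpr with a minimum count of 10 and a total of 15, Benjamini-Hochberg adjustment over all genes tested, threshold 0.05). Each fit had 2 mice against 2 and 2 residual degrees of freedom. The interaction fit had mouse as a block and 4. P-values rest on the spread between these mice, drawn towards a spread that the fit pools over many genes. In the stage comparisons that pooled spread had a weight of 6.63 to 21.2 degrees of freedom. Intervals on counts and shares are exact at 95% and, like the floor of 3 counts for a count of 0, cover counting error only. Class sums ranged from 114382 to 26454518 UMIs, and low levels in basal cells of PI mice are the least precise.

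The 10 members and the 6 pathway lists were chosen with earlier results of these data known. Named list genes are up to 10 higher and 10 lower per comparison by size of change, among those called, with at least 20 CPM in a group and no overlap between mice; genes most like a member are the 3 with the highest correlation. For shares, cells were thinned to 1000 UMIs. Alternatives were DESeq2 1.42.0, no filter, a fold threshold (glmTreat, log2 change over 1 at an FDR of 0.01), equal depth, main clusters alone, the replicate number as a block, and leaving out each mouse. Scaling without TMM, and levels without the cell with the most UMIs of a gene, were added after seeing the data. Fits were tested on simulated data. Number of columns of samples not used: 0. Python 3.11.15 with numpy 2.4.6, pandas 2.3.3, scipy 1.17.1 and matplotlib 3.10.9 did the rest.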

Additional observations from a re-analysis of the deposited data

Results flagged for a closer look

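The change from NP to PI was tested for a difference between luminal progenitors and differentiated hormone-sensing cells of the same mice (edgeR interaction). With 2 mice a stage, 36 pathway genes differed, 26 with a higher and 10 with a lower value in luminal progenitors. Among all genes 2375 of 11743 differed. The 17 listed here are a part of the 36, and others that differed, such as Lrg1, Cd14 and Socs3, are not listed. A positive value means a higher change in luminal progenitors. Metallothioneins changed in opposite directions in the fits of the classes, and the difference was 2.88 on the log2 scale for Mt2 and 2.71 for Mt1 (edgeR adjusted p = 1.27e-12 for both). The interleukin 6 receptor gene Il6ra differed by 2.75 (edgeR adjusted p = 1.71e-08) and the interleukin 1 receptor gene Il1r1 by 1.94. Among acute phase and iron genes the differences were 1.75 for Lcn2, 1.64 for C4b, 1.51 for Ltf and 1.19 for Fth1. The differences were also 1.30 for Bcl3, 0.93 for Icam1 and 0.61 for Lif. Lower values in luminal progenitors were -0.62 for Tnf, -0.71 for Irak1, -0.87 for Il11ra1, -1.58 for Il1rn, -1.71 for the clotting initiator F3 and -2.14 for Serpine2.

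Fibroblasts (C18) were outside the epithelial comparisons and held some members above their level in NP mice. Hp was at 87.0 CPM in the 1 PI mouse with enough of these cells (38 cells, 12 UMIs), against 12.49 and 14.4 CPM in NP. Saa3 was also at 87.0 CPM there, from 12 UMIs of a single cell, and at 0 without it. Lbp was at 63.9 CPM on average in G mice and 72.5 CPM in that PI mouse, against 37.5 and 43.3 CPM in NP.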

How the results depend on the processing

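With 2 mice a stage, single mice moved many values. Leaving out 1 mouse gave 29 to 39 list genes called in luminal progenitors, 12 to 32 in hormone-sensing progenitors, 15 to 33 in differentiated hormone-sensing cells, 4 to 20 in basal cells PI against NP, 32 to 39 in G against NP and 47 to 55 in L against G, 17 to 32 in differentiated alveolar cells, 27 to 38 in alveolar progenitors and 18 to 36 for the interaction. With 1 mouse left in a stage, that mouse is assumed to vary like the others. Asking for a log2 change over 1 at an FDR of 0.01 left 5, 6, 1, 1, 7, 12, 11 and 10 list genes in the comparisons in the same order. Basal cells PI against NP gave 1 list gene with no filter and 3 at equal depth, basal cells G against NP 24 with DESeq2, differentiated alveolar cells 22 at equal depth, and the interaction 22 without the mouse block. The Hp difference in basal cells PI against NP was 3.96 to 4.96 without an NP mouse or the first PI mouse, and -0.49 without PI replicate 2, which reversed it.

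Mice of the same number share only the number, as their deviations correlated at -0.04 to 0.07. With the replicate number as a block 43, 24, 28, 12, 41, 54, 34 and 37 list genes were called. The block took the value for Saa1 in basal cells L against G from 1.62 to 1.03 and for Saa2 from 1.52 to 0.86.

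Among values of named list genes under the alternatives, 1271 kept their call and direction, 208 lost the call and 0 reversed. The fold threshold (glmTreat) alone took the call from 88 of 135 values and left it to 47, and DESeq2 took it from 17 of 135. The cause of lost calls was not tested further. Other moves of member values past 1.5 times were -4.53 for Hp and 3.50 for Saa2 in basal cells G against NP (equal depth and main clusters alone), 11.93 for Saa1 in differentiated alveolar cells (equal depth) and -1.38 for Fgb in basal cells PI against NP (without the cells richest in UMIs).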
